A study of Mus musculus with 12 samples.

Results

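The 9 genes that make and remodel phosphatidylserine, or that carry the serine incorporator name, were examined in the livers of mice whose hepatocytes lack Phgdh, the first enzyme of de novo serine synthesis. They were Ptdss1 and Ptdss2 (phosphatidylserine synthases), Pisd (phosphatidylserine decarboxylase), Pemt (phosphatidylethanolamine methyltransferase) and Serinc1, Serinc2, Serinc3, Serinc4 and Serinc5. Members were found as the array probes whose RefSeq accession belongs to these symbols, which gave 17 probes for 9 of the 32524 genes on the array. All 17 probes were well above the local background on all 12 arrays, so all 9 genes were among the 16915 tested. Finding the probes used no measured value, but the list of members was chosen with earlier results of these data known.

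The LKO mice carried the Alb+/Cre;Phgdh flox/flox genotype, in which Cre under the albumin promoter removes exons of Phgdh in hepatocytes, while other liver cells keep the gene. Their Floxed littermates carried Phgdh flox/flox alleles without deletion, so the loxP-flanked alleles were common to both groups. All were male C57BL/6 mice aged 30 weeks on laboratory chow with casein as its protein, with 6 mice of each genotype and the liver RNA of 1 mouse on each 1-colour Agilent array. Floxed mice 1 to 4 were on slide 1, Floxed mice 5 and 6 with LKO mice 1 and 2 on slide 2, and LKO mice 3 to 6 on slide 3, so slide and genotype overlapped in part.

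Serine is the head group of phosphatidylserine, a phospholipid of the inner leaflet of the plasma membrane. Mammalian cells make it by exchanging the head group of an existing phospholipid: Ptdss1 replaces the choline of phosphatidylcholine and Ptdss2 the ethanolamine of phosphatidylethanolamine. In mitochondria Pisd turns phosphatidylserine into phosphatidylethanolamine, which Pemt, an enzyme of hepatocytes, methylates to phosphatidylcholine. The Serinc proteins span the membrane many times and were named as carriers of serine into phosphatidylserine and sphingolipids, and Serinc3 and Serinc5 are known as restriction factors of retroviruses.

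Phgdh itself was read at 5.18 ± 0.23 log2 intensity in Floxed and 4.70 ± 0.41 in LKO livers (SD, n = 6 each), a difference of -0.48 that passed the unadjusted limma threshold of 0.05 (Benjamini-Hochberg adjusted p = 0.451; two-sided exact permutation test p = 0.0346). The arrays labelled LKO 1 (5.07) and LKO 2 (5.30) lay inside the Floxed range of 4.81 to 5.50, and the 4 LKO arrays of slide 3 lay below it, from 4.23 to 4.66. Between the LKO arrays of slide 3 and the Floxed arrays of slide 1 alone the difference was -0.69 (limma adjusted p = 0.0738). Another probe of the gene, which exceeded the background clearly on 4 arrays only, read 2.87 ± 0.29 in Floxed and 3.17 ± 0.53 in LKO livers (SD, n = 6 each), the opposite direction, and was not tested. The tested Phgdh probe was itself dim, at percentile 8.35 of mean intensity, which limits what its values can show. Whether either probe lies in the deleted exons was not tested. The paper itself reports the null allele in LKO liver by PCR, with lower Phgdh mRNA by qRT-PCR and lower protein by Western blot. The 75th percentile of the intensity ran from 239 to 473, 0 spots were saturated, and 21614 to 24252 probes per array were well above background. The marker genes of hepatocytes (7 of 7), Kupffer cells (7 of 7), sinusoidal endothelium (6 of 6) and stellate cells (6 of 6) were well above background on all arrays. Cholangiocytes (2 of 5, with Krt7, Epcam and Sox9 not) and pancreatic acinar cells (3 of 7) were read in part. Among the tested markers of these cell types 0 were called between genotypes at an unadjusted limma p below 0.05.

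None of the 9 genes passed the test between LKO and Floxed livers at an unadjusted limma p below 0.05, the criterion in the study's array methods. Among all tested genes 1413 of 16915 (8.35%) passed it, 4.92% higher and 3.43% lower in LKO livers, and 0 did so after Benjamini-Hochberg adjustment. The mean was higher in LKO livers for 6 of the 9 genes and lower for 3, against 48.8% of all tested genes higher. The median log2 fold change was 0.04, against -0.0035 for all tested genes. For 7 genes the log2 fold change was below 0.2 in size, with 95% intervals that reached at most 0.38 from 0, while Ptdss2 and Serinc2 had wider intervals and the larger differences of 0.49 and 0.33. The genotypes overlapped for 9 of the 9 genes, and over all genes 50 (0.296%) had groups without overlap. In whole liver, fewer cells of a type and less RNA per cell cannot be told apart.

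**Figure D1:**
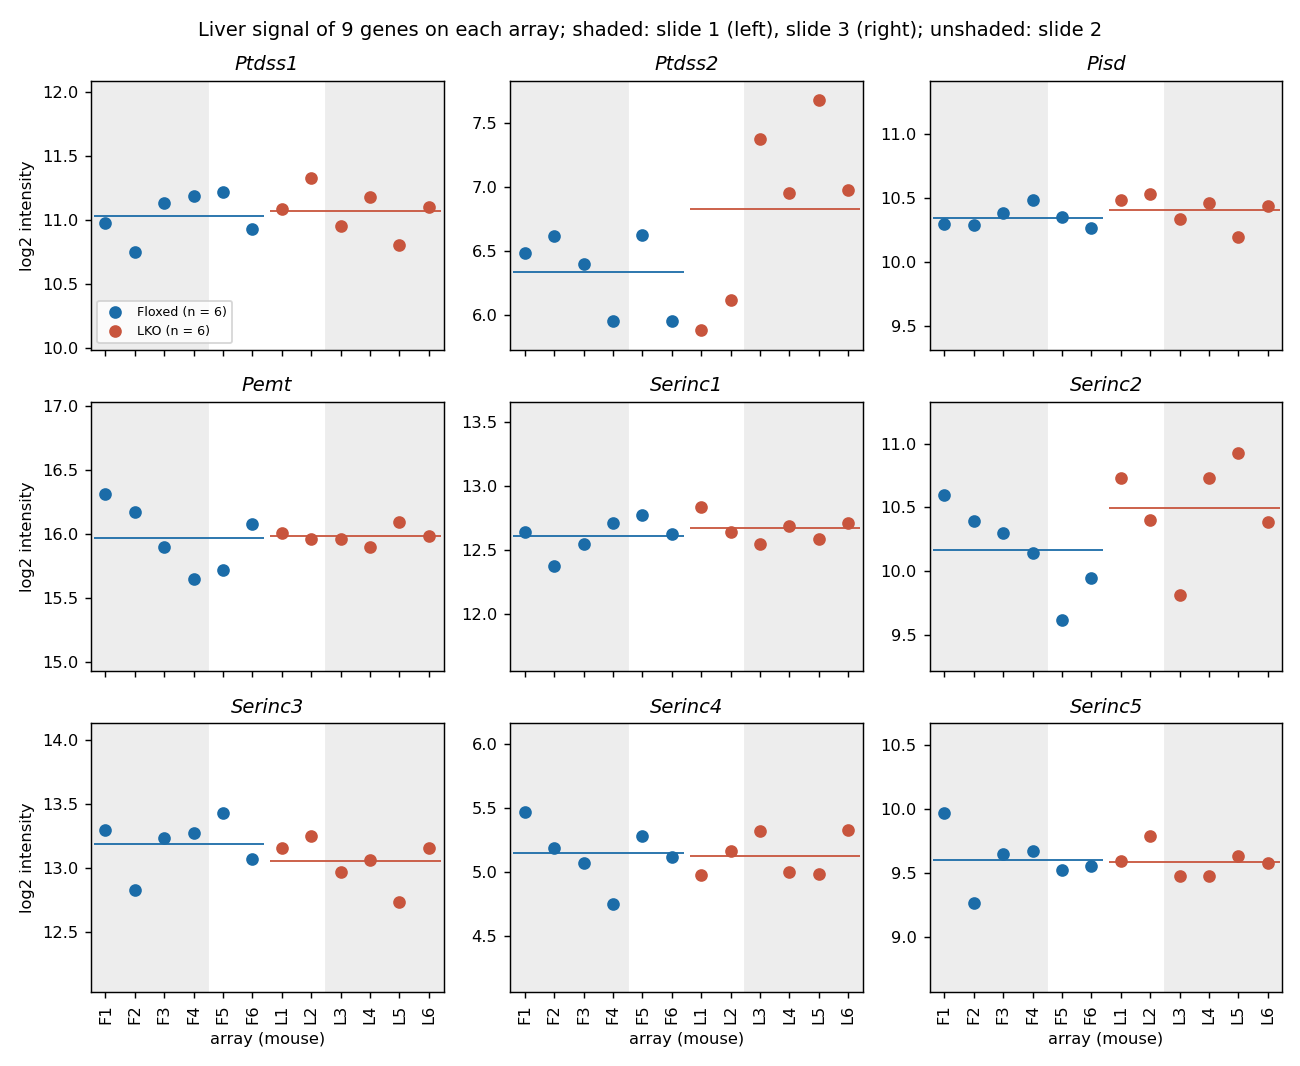
The log2 intensity (vertical axis) of each of the 9 genes on each of the 12 arrays (horizontal axis; F, Floxed; L, LKO), with a line at the mean of each genotype (n = 6); every panel spans the same range of log2 values. Ptdss2 stands between 6.95 and 7.68 on the 4 arrays of slide 3 and between 5.88 and 6.63 on the other 8, whereas the points of Pisd lie within 0.34 of each other.

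Ptdss1, the synthase that uses phosphatidylcholine, differed between genotypes by less than the spread between mice. Its log2 intensity ran from 10.74 through a median of 11.06 to 11.21 in Floxed livers and from 10.80 through 11.09 to 11.32 in LKO livers. The ranges overlapped over nearly their whole length, with Floxed 2 and LKO 5 lowest. The log2 fold change was 0.04 ± 0.11 (SE), with a 95% interval from -0.19 to 0.27 (limma adjusted p = 0.975; exact permutation test p = 0.697). A second probe of the gene gave 0.05. The third and dimmest probe gave -0.34 (limma adjusted p = 0.713), with its lowest values on LKO 5 and LKO 3, so the probes of Ptdss1 disagreed in sign although none was called.

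Ptdss2, the synthase that uses phosphatidylethanolamine, had the largest difference of the 9 genes over all 12 arrays. It was read by a single probe, at percentile 28.5 of mean intensity. After normexp background correction its difference was 0.36, slightly below the 0.37 of Serinc2. The log2 intensity of Ptdss2 was 6.49, 6.62, 6.40 and 5.95 in Floxed mice 1 to 4 on slide 1 and 6.63 and 5.96 in Floxed mice 5 and 6 on slide 2. In LKO mice it was 5.88 and 6.12 on slide 2 (LKO 1 and LKO 2) and 7.38, 6.95, 7.68 and 6.98 on slide 3 (LKO 3 to LKO 6). The 4 arrays of slide 3 were thus above all other 8 arrays, LKO 1 was the lowest of all 12, and LKO 2 lay within the Floxed range. Of all tested genes 518 (3.06%) had the 4 arrays of slide 3 above the other 8, and 188 (1.11%) had them below.

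The mean of Ptdss2 was 6.34 ± 0.31 in Floxed and 6.83 ± 0.70 in LKO livers (SD, n = 6 each), a log2 fold change of 0.49 ± 0.28 (SE), or 1.4-fold, with a 95% interval from -0.12 to 1.1. This difference was not called (limma adjusted p = 0.741). The two-sided exact permutation test gave p = 0.167, where 6 against 6 allows no p below 0.00216. Within slide 2, the slide with both genotypes, LKO minus Floxed was -0.29, the opposite direction. Between the 4 LKO arrays of slide 3 and the 4 Floxed arrays of slide 1 it was 0.88, or 1.84-fold, which passed the unadjusted threshold but not the adjusted one (limma adjusted p = 0.0718). In that comparison 1947 of all 16915 genes (11.5%) passed the unadjusted threshold and 324 the adjusted one. Within the LKO genotype alone, slide 3 exceeded slide 2 by 1.25, and 0.941% of all tested genes had a difference of that size or more. The genotype and the slide of these 8 arrays cannot be told apart.

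Leaving out LKO 1 raised the difference of Ptdss2 to 0.68 (limma adjusted p = 0.286) and leaving out LKO 2 raised it to 0.63 (limma adjusted p = 0.478), both past the unadjusted threshold, and without LKO 5 it was 0.32. The residual SD of Ptdss2 around the genotype means was 0.54, above the median of 0.22 over all tested genes. It was lower where arrays were brighter, as r with the log2 75th percentile of the array was -0.58 after subtracting each genotype's mean (rho = -0.55, 12 arrays), and -0.32 without the 2 arrays farthest from the median. LKO 5, with the highest Ptdss2 value, had the lowest 75th percentile of all arrays, 239. The part of array brightness in the result was not tested.

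The genes whose pattern over the 12 arrays was most like that of Ptdss2, after subtracting each genotype's mean, were Rnf157 (r = 0.967), Tbc1d21 (r = 0.966) and Amer3 (r = 0.966), out of 12510 genes with a symbol that were compared. Rnf157 encodes a RING finger ubiquitin ligase, Tbc1d21 a TBC domain protein of the testis, and Amer3 a member of the family that binds the APC protein. Each was highest on the 4 arrays of slide 3. Rnf157 ran from 4.91 to 5.36 there and from 4.12 to 4.64 on the other 8 arrays. Tbc1d21 ran from 5.97 to 6.74 against 5.03 to 5.56, and Amer3 from 7.05 to 8.27 against 5.01 to 6.45. None of these ranges overlapped, as for Ptdss2. Because the 3 genes were chosen for their likeness to Ptdss2, this separation largely follows from the choice and is no further evidence. Rnf157 and Tbc1d21 were dim, at percentiles 4.66 and 16.8 of mean intensity. The LKO-minus-Floxed differences within slide 2 were 0.06, 0.06 and -0.32 in that order.

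The window of 250 bases upstream of the annotated start of Ptdss2 is shown because this gene had the largest difference. It comes from the RefSeq promoter table (GRCm38.p6, chr7:141131036-141131285, plus strand) and is printed 5′ to 3′. The 5 motifs searched on both strands were the CCAAT box (CCAAT), the GC box (GGGCGG), the E-box (CACGTG), the Atf4 element (TGATGNAA) and the cAMP response element (TGACGTCA), whose matches would stand in capitals. Their letters are not in this window, so it has no capitals.
Ptdss2: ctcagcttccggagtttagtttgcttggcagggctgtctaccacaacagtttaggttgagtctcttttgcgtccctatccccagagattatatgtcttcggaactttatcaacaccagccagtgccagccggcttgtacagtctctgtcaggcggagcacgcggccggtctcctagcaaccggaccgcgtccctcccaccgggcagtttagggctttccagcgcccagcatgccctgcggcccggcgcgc
Over all 32851 windows of the same length, the CCAAT box was found in 33.8%, the GC box in 32.7%, the E-box in 6.02%, the Atf4 element in 3.45% and the cAMP response element in 1.55%. The Ptdss2 window had a GC content of 59.6%, against a median of 52.4% over all windows. A window was found for 7 of the 9 genes, without Ptdss1 and Serinc1.

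Pisd, the mitochondrial enzyme that consumes phosphatidylserine, was the steadiest of the 9 genes. Its log2 intensity ran from 10.26 through a median of 10.32 to 10.48 in Floxed livers and from 10.19 through 10.45 to 10.53 in LKO livers. All 12 arrays lay within 0.34, or 1.27-fold, and the residual SD was 0.11. The log2 fold change was 0.06 ± 0.08 (SE), with a 95% interval from -0.10 to 0.23 (limma adjusted p = 0.949; exact permutation test p = 0.316). Within slide 2 both LKO arrays were above both Floxed arrays, by 0.20 on average, a lack of overlap shared by 2355 of all tested genes (13.9%) and by 3 of the 9 (Pisd, Serinc2 and Serinc5). Between slides 1 and 3 the difference was -0.0061.

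Pemt, which makes phosphatidylcholine from the product of Pisd, had the same mean in both genotypes to within 0.02. Its log2 intensity ran from 15.65 through a median of 15.99 to 16.32 in Floxed livers and from 15.90 through 15.98 to 16.10 in LKO livers, so the LKO values lay inside the Floxed range. The SD was 0.26 in Floxed and 0.07 in LKO livers (n = 6 each). The log2 fold change was 0.02 ± 0.11 (SE), with a 95% interval from -0.22 to 0.26 (limma adjusted p = 0.99; exact permutation test p = 0.89). The other 2 probes of Pemt gave 0.06 and -0.0035 and followed the first over the arrays (r = 0.958 and r = 0.825 within genotype).

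**Figure D2:**
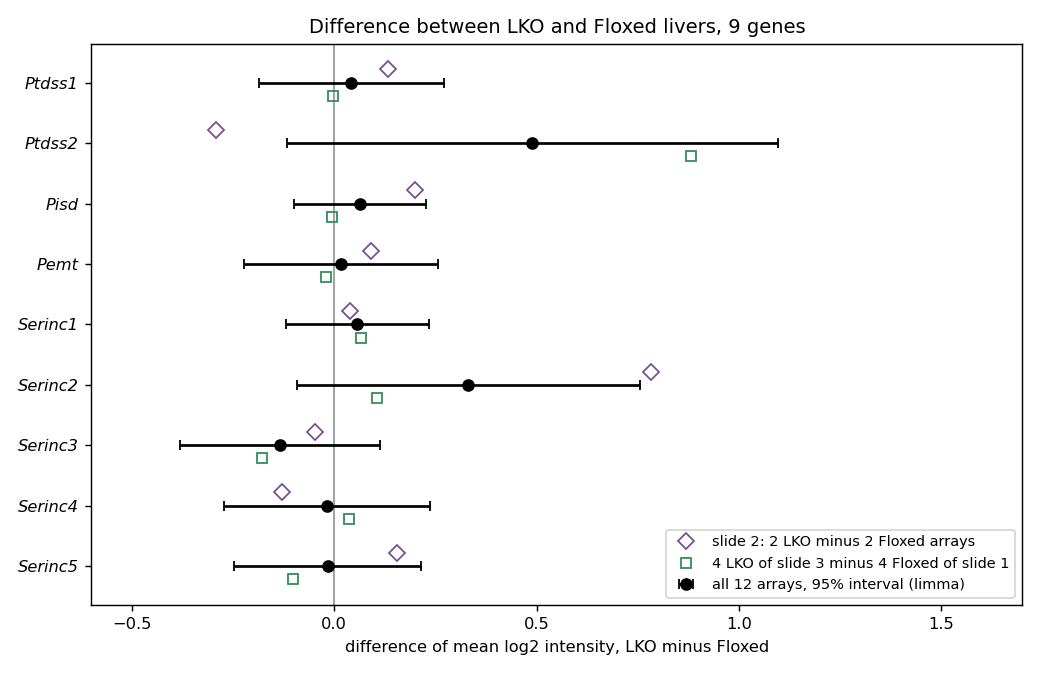
Difference of the mean log2 intensity between LKO and Floxed livers (horizontal axis) for the 9 genes, over all 12 arrays with its 95% interval from limma (filled circles), within slide 2 (diamonds, 2 arrays per genotype) and between the 4 LKO arrays of slide 3 and the 4 Floxed arrays of slide 1 (squares). All 9 intervals cross 0; for Ptdss2 the diamond (-0.29) and the square (0.88) lie on opposite sides of 0, and for Serinc2 the diamond (0.78) lies above the interval of the 12 arrays.

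Among the Serinc genes, Serinc2 had the largest difference. It was read at 10.60, 10.39, 10.30 and 10.14 log2 intensity in Floxed mice 1 to 4 and at 9.62 and 9.95 in Floxed mice 5 and 6. In LKO mice it was read at 10.73 and 10.40 on slide 2 and at 9.81, 10.73, 10.93 and 10.38 on slide 3. The 2 Floxed arrays of slide 2 were among the 3 lowest of all, with LKO 3 between them, and the genotypes overlapped.

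The mean of Serinc2 was 10.17 ± 0.35 in Floxed and 10.50 ± 0.40 in LKO livers (SD, n = 6 each), a log2 fold change of 0.33 ± 0.20 (SE), or 1.26-fold, with a 95% interval from -0.09 to 0.76 (limma adjusted p = 0.752; two-sided exact permutation test p = 0.156). Within slide 2 the difference was 0.78, a size found in 1.35% of all tested genes. With slide as a fixed block this same difference passed the unadjusted threshold (limma adjusted p = 1). Slides 1 and 3 each hold a single genotype, so that fit takes its genotype difference from slide 2 alone. Between slides 1 and 3 it was 0.11 (limma adjusted p = 0.936). The Floxed arrays of slide 2 lay 0.57 below those of slide 1. Without LKO 3 the difference was 0.47, past the unadjusted threshold (limma adjusted p = 0.619). The other 2 probes gave 0.30 and 0.21 and rose and fell with the first (r = 0.983 and r = 0.865 within genotype).

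Serinc2 moved with the mean log2 intensity of the markers of stellate cells (r = 0.652) over the 12 arrays within genotype. For the other members r with these markers ran from -0.37 (Serinc4) to 0.368 (Pemt). The mean log2 intensity of the stellate markers was 7.43 in Floxed and 7.39 in LKO livers. Their summed intensity, which weighs the brightest markers most, ran from 14800 to 18200 intensity units in Floxed and from 13400 to 20600 in LKO livers, with 6 of 6 markers measured. The part of these cells in the Serinc2 values was not tested.

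The window upstream of the outermost of the 3 annotated starts of Serinc2 (chr4:130275587-130275836, minus strand, GRCm38.p6) and the Serinc5 window (chr13:92610888-92611137, plus strand) are shown because they hold several GC boxes, which stand in capitals.
Serinc2: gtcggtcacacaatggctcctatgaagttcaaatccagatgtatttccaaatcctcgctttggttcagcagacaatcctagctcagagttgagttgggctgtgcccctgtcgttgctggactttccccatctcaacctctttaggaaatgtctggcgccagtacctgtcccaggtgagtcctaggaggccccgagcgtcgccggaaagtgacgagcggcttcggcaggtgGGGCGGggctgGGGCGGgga
Serinc5: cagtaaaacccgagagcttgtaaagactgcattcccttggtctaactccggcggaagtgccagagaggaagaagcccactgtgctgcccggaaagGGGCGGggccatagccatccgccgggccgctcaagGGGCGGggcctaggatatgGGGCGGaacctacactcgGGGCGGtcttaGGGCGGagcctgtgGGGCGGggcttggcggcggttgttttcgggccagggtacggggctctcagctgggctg
The Serinc2 window has 2 GC boxes and the Serinc5 window 6, and neither has a match to the other motifs. The windows of the other 2 Serinc2 starts hold none of the 5 motifs. The Serinc4 window has 2 CCAAT boxes.

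Serinc1, Serinc4 and Serinc5 had nearly equal means in both genotypes. Serinc1 ran from 12.37 through a median of 12.63 to 12.77 log2 intensity in Floxed livers and from 12.55 through 12.66 to 12.83 in LKO livers, with a log2 fold change of 0.06 ± 0.08 (SE; limma adjusted p = 0.958). Serinc4 ran from 4.75 through 5.16 to 5.47 and from 4.98 through 5.09 to 5.33, with a log2 fold change of -0.02 ± 0.12 (limma adjusted p = 0.99). The Serinc4 probe was dim, at percentile 10.9 of mean intensity, and its difference turned to 0.10 when arrays were scaled to the 75th percentile and to 0.09 without normalization. Serinc5, read by 10 spots of 1 probe, ran from 9.27 through 9.60 to 9.97 and from 9.47 through 9.59 to 9.79, with a log2 fold change of -0.02 ± 0.11 (limma adjusted p = 0.99). In each case the LKO values lay mostly inside the Floxed range.

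Serinc3, a restriction factor of retroviruses, was the member with the most negative difference. It ran from 12.82 through a median of 13.25 to 13.43 log2 intensity in Floxed livers and from 12.73 through 13.11 to 13.25 in LKO livers. The log2 fold change was -0.13 ± 0.11 (SE), with a 95% interval from -0.38 to 0.11 (limma adjusted p = 0.892; exact permutation test p = 0.275). The difference was -0.05 within slide 2 and -0.18 between slides 1 and 3. The other 2 probes gave -0.13 and -0.02, so the 3 probes shared their sign without any being called.

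**Figure D3:**
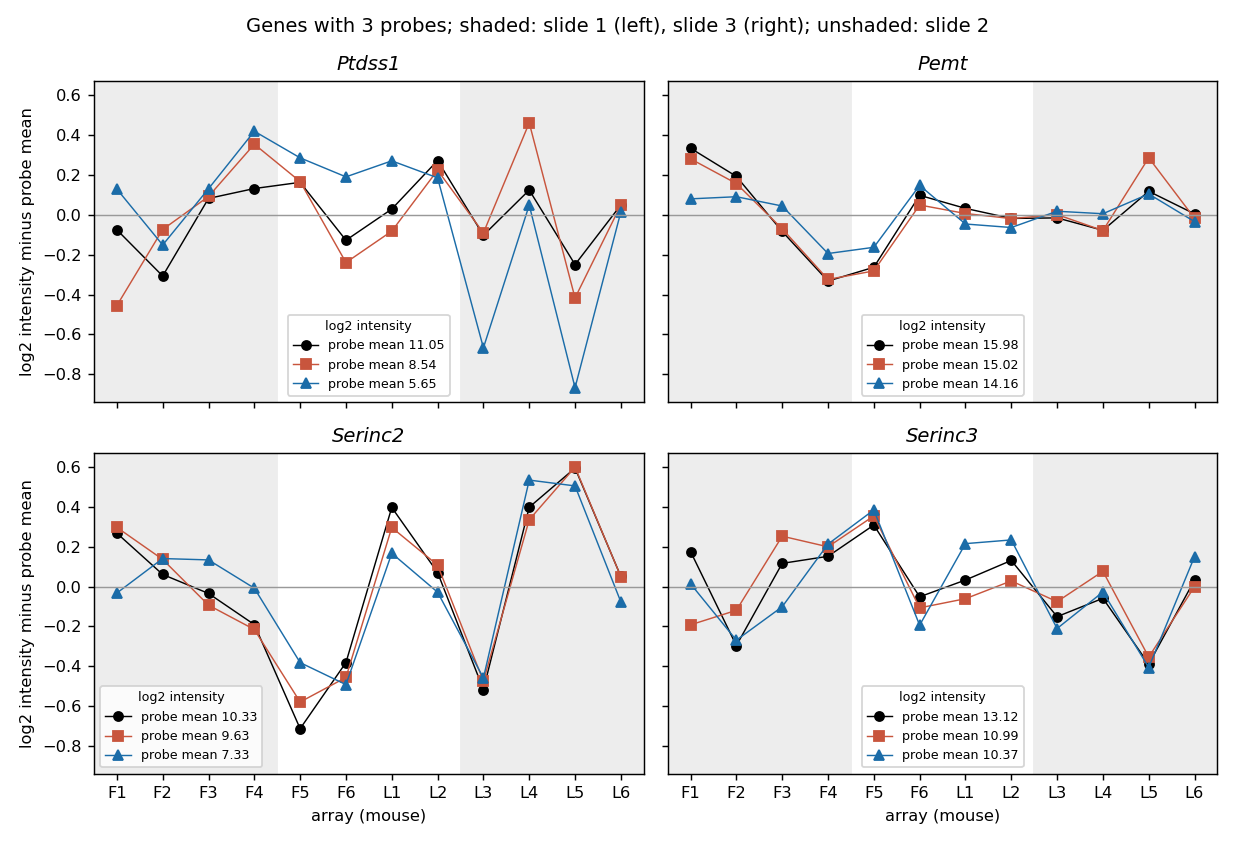
Log2 intensity of each probe minus that probe's own mean (vertical axis) on the 12 arrays (horizontal axis; F, Floxed; L, LKO) for the 4 genes with 3 probes. The probes of Pemt and of Serinc2 run together, while the dimmest probe of Ptdss1 drops further than its other probes on LKO 3 and LKO 5.

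Across the 12 livers, after subtracting each genotype's mean, Ptdss1 rose and fell with Serinc3 (r = 0.903, rho = 0.774) and with Pisd (r = 0.846, rho = 0.783). Without the 2 arrays farthest from the median of Ptdss1, r was 0.76 and 0.812. These values are descriptions over 36 pairs that share the arrays and the normalization. Over all 12510 genes compared, 0.576% had an r with Ptdss1 at least as far from 0 as that of Serinc3, and 2.04% as that of Pisd. Serinc1 ran with Serinc3 (r = 0.754), Ptdss2 ran against Pisd (r = -0.737, rho = -0.734) and Pemt against Ptdss1 (r = -0.676, rho = -0.79). An r at least as far from 0 was found for 7.82%, 5.08% and 15.1% of the genes in that order, so these pairs were less unusual.

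The same genes also followed the brightness of the array, although quantile normalization gave each array the same distribution of values. With the log2 75th percentile, r was 0.733 for Ptdss1, 0.717 for Pisd, 0.675 for Serinc1 and 0.641 for Serinc3, and -0.719 for Pemt. Without the 2 arrays farthest from the median of the 75th percentile, r was 0.354 for Ptdss1, 0.457 for Pisd, 0.431 for Serinc1, -0.056 for Serinc3 and -0.734 for Pemt. So the relations of Ptdss1, Pisd, Serinc1 and Serinc3 with brightness rested largely on those 2 arrays, and that of Pemt did not. Ptdss1, Pisd and Serinc3 also followed the mean log2 intensity of the hepatocyte markers (r = 0.736, 0.644 and 0.698), and Pemt ran against it (r = -0.617). For the other 5 genes r with these markers lay between -0.341 and 0.381. The mean log2 intensity of the hepatocyte markers was 16.89 in Floxed and 16.85 in LKO livers. Their summed intensity ran from 1300000 to 1400000 intensity units in Floxed and from 1310000 to 1450000 in LKO livers. The part of brightness and of cell makeup in these correlations was not tested.

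**Figure D4:**
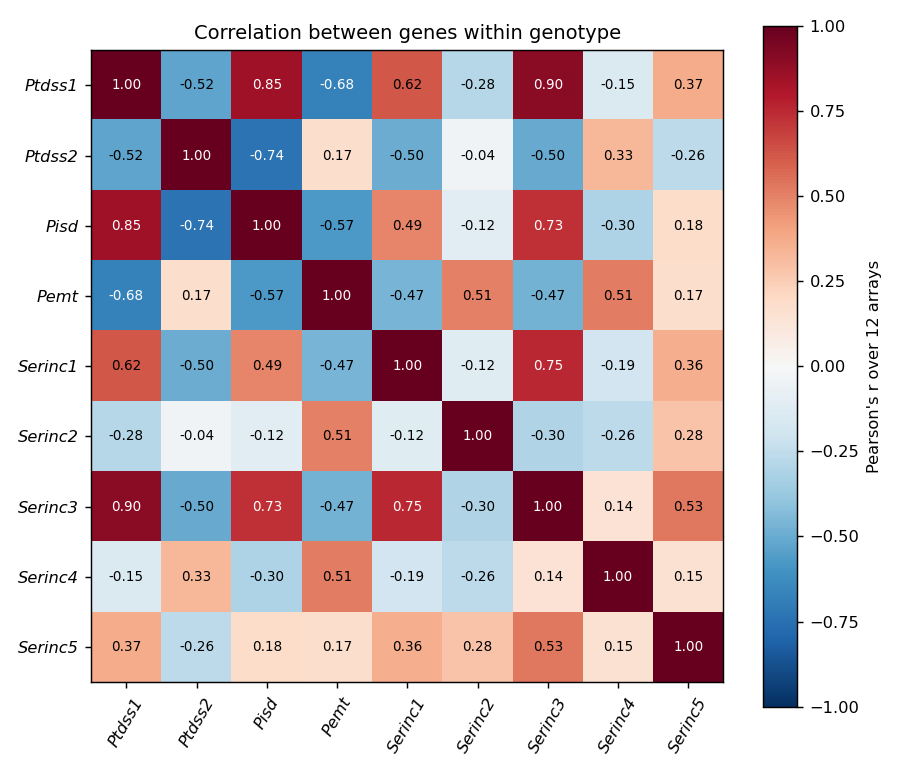
Pearson's r (colour and number) between the log2 intensities of each pair of the 9 genes over 12 arrays, after subtracting the mean of each genotype; both axes list the genes. Ptdss1, Pisd, Serinc1 and Serinc3 form a block of positive values (0.49 to 0.90), and Ptdss2 is negative with each of them.

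The upstream windows of Serinc3 (chr2:163645144-163645393, minus strand, GRCm38.p6) and of the more distant of the 2 annotated starts of Pisd (chr5:32785627-32785876, minus strand) are shown because these 2 genes had the highest r with Ptdss1. Capitals mark a CCAAT box (ATTGG where it lies on the opposite strand) or a GC box.
Serinc3: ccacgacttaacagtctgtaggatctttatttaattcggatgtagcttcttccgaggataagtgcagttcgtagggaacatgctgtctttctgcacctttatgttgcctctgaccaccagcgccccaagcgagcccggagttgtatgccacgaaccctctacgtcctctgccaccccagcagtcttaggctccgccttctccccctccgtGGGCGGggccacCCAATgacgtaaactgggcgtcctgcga
Pisd: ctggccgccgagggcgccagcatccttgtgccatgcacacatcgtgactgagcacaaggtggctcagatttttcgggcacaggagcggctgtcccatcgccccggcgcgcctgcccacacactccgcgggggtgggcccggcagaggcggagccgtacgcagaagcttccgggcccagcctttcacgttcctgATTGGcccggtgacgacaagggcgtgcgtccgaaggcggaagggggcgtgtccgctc
The Serinc3 window has a GC box and a CCAAT box, and the Pisd window has a CCAAT box. The window of the other Pisd start holds none of the 5 motifs.

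Of 55 other genes of phospholipid metabolism, 47 were tested and 2 were called (4.26%, against 8.35% of all tested genes), Etnk1 lower and Ano6 higher. Of the 47, 29 (61.7%) had a higher mean in LKO livers and 18 a lower one, against 48.8% of all tested genes higher. The median log2 fold change was 0.05, against -0.0035 for all tested genes. In the Kennedy pathway, which builds phosphatidylcholine and phosphatidylethanolamine from free choline and ethanolamine, 1 of 10 genes was called. In the transfer, exposure and breakdown of phosphatidylserine 1 of 14 was called. Among the genes of phosphatidic acid and diacylglycerol supply 0 of 12 were called, among those of phosphatidylinositol and cardiolipin 0 of 7, and in acyl chain remodelling 0 of 4.

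Etnk1, an ethanolamine kinase that starts the ethanolamine branch of the Kennedy pathway, fell in LKO livers at the unadjusted threshold. Its log2 intensity was 8.39, 7.76, 8.04, 8.23, 8.03 and 7.81 in Floxed mice 1 to 6 and 7.87, 7.51, 7.35, 7.70, 7.67 and 7.26 in LKO mice 1 to 6. Of the 6 LKO values 5 lay below all Floxed values, and LKO 1 lay above 2 of them. The log2 fold change was -0.48 ± 0.13 (SE), with a 95% interval from -0.77 to -0.20 (limma adjusted p = 0.315; two-sided exact permutation test p = 0.00649). Within slide 2 the difference was -0.23, and between slides 1 and 3 it was -0.61, again past the unadjusted threshold. With slide as a fixed block, which takes its genotype difference from slide 2 alone, Etnk1 was not called. Etnk2, another ethanolamine kinase, was far brighter, at 15.23 log2 intensity in Floxed and 15.40 in LKO livers. The log2 fold change of Etnk2 was 0.175 ± 0.12 (SE), the other direction, and it was not called (limma adjusted p = 0.827).

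Ano6, a scramblase that exposes phosphatidylserine on the cell surface, rose by 0.21 ± 0.09 (SE) at the unadjusted threshold (limma adjusted p = 0.564; exact permutation test p = 0.0346). It ran from 4.91 through a median of 5.10 to 5.14 in Floxed livers and from 4.99 through 5.25 to 5.48 in LKO livers, so the lowest LKO value, LKO 1, lay inside the Floxed range. Within slide 2 the difference was -0.0012, and between slides 1 and 3 it was 0.32, past the unadjusted threshold (limma adjusted p = 0.28). After scaling to the 75th percentile it was 0.32 as well and called, and after normexp background correction it was 0.02 over all 12 arrays and not called. The call was also lost without Floxed 1, Floxed 4, LKO 2, LKO 3, LKO 4 or LKO 5, each left out in turn, with differences from 0.17 to 0.22. Its probe was dim, at percentile 11.1 of mean intensity.

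**Figure D5:**
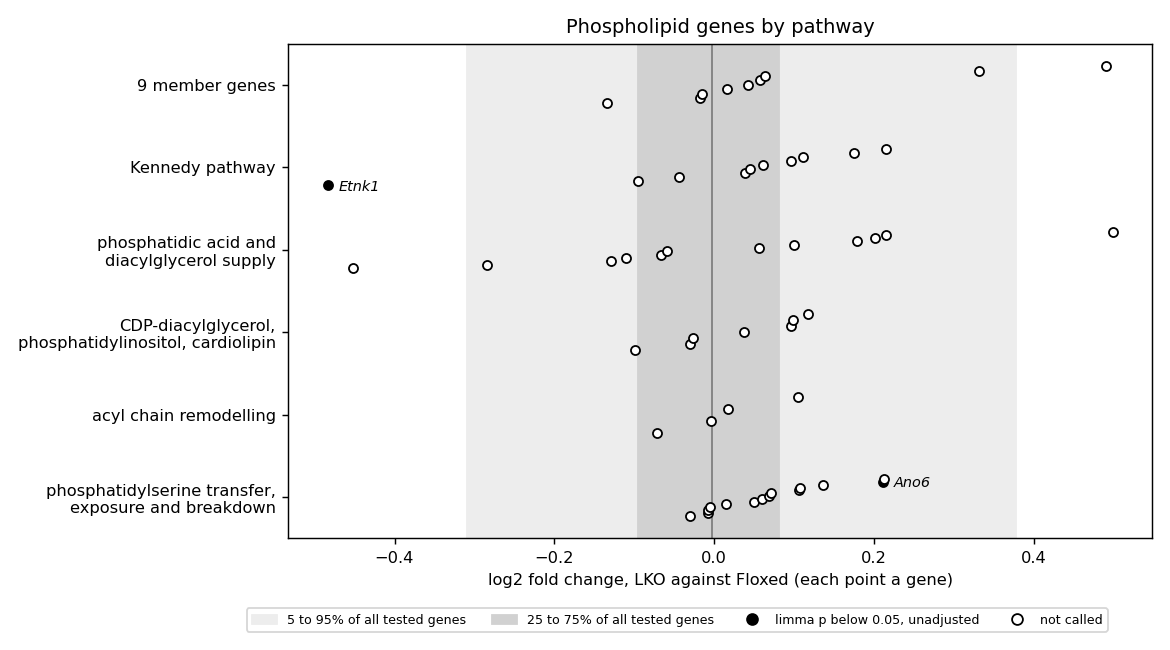
Log2 fold change between LKO and Floxed livers (horizontal axis) of the 9 genes and of the 47 other phospholipid genes in 5 groups (rows), 1 point per gene, filled where the unadjusted limma p was below 0.05. The grey bands hold 25 to 75% (from -0.10 to 0.08) and 5 to 95% (from -0.31 to 0.38) of all tested genes; Etnk1 (-0.48) and, not called, Ptdss2 (0.49) lie outside the wider band with 2 other open points, and the other 8 of the 9 genes lie within it.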

How the data were processed

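Total RNA of 12 livers was labelled with Cy3 and hybridised to 12 Agilent arrays. The deposited scanner files hold the processed intensity of each spot, which Agilent Feature Extraction had already corrected for background (version 10.7.1.1 per the file headers, 9.5.1.1 per the submitters' processing notes). The authors' own value table, on the log2 scale, served as an alternative, and 99.9% of its values lay within 0.1 of those computed here. Quantile normalization was applied to the log2 intensities of the 12 arrays, after which outlier spots (0.298%) were set missing and spots of a probe averaged. The filter kept 20404 of 39429 probes, those whose spots were well above background on each array. This flag took the place of the detection p-value in the study's methods. A gene with several kept probes was represented by the brightest, and each other member probe is given too. Gene names came from RefSeq (GRCm38.p6), which matched 94.3% of the RefSeq accessions. Genotypes were compared with limma 3.58.1 (R 4.3.3), without covariates, and genes were called at an unadjusted p below 0.05, as in the study's array methods, with Benjamini-Hochberg adjusted p-values over 16915 genes. The study's statistics section also gives a log2 fold change of at least 1 in size and a t-test at an adjusted p below 0.05. Single members were also compared by an exact permutation test over 924 arrangements. The tests were tried on simulated data. The slide came with the deposited arrays, and slide 2 alone held both genotypes.

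The mice of a group are separate animals, and their number limits the precision. Correlations are given without p-values, after subtracting each genotype's mean. Named were the 9 genes, Phgdh and the other phospholipid genes with an unadjusted p below 0.05, with Etnk2 beside Etnk1. Also named were the 3 genes most correlated with the member of smallest limma p and largest difference. That member was Ptdss2 in both respects (by the exact test Serinc2 had the smaller p). The members, the gene lists and the marker lists were chosen with earlier results of these data known. Promoter windows came from RefSeq, and protein sequences were not analysed here. The RNA kit differs between the labels and the study's methods. Alternatives covered normalization, background, filter, probes, threshold, test, slide, replicate number and each array left out; "slides 1 and 3 alone" was added after seeing the data. The results of 2 marker lists are not reported here.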

Additional observations from a re-analysis of the deposited data

How the results depend on the processing

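The count of 1413 called genes fell to 885 without normalization between arrays, to 317 with slide as a fixed block, to 512 on slide 2 alone, to 88 with a size of at least 1 on the log2 scale and to 0 with adjusted p-values, and rose to 2791 without the filter on dim probes. The share of called genes that were higher in LKO livers was 58.9%, 78.1% after 75th percentile scaling and 87.1% without normalization. Of the 9 genes 0 were called, but 1 was called without normalization (Ptdss2, 0.51), with slide as a fixed block and on slide 2 alone (Serinc2), and on slides 1 and 3 alone (Ptdss2), where 1947 of all genes were called and 324 after adjustment. The fixed block takes its genotype difference from slide 2 alone, so it and the fit on slide 2 are not independent. Leaving out single arrays gave 1103 to 1837 called genes, 0 to 1 of the 9 genes, and 1 to 3 of the other phospholipid genes. The 2 other phospholipid genes called became 1 without normalization and 1 after normexp (Etnk1 each time), 0 after adjustment and 0 with that minimum size. With slide as a fixed block 3 were called and on slide 2 alone 2, with neither Etnk1 nor Ano6 among them. Phgdh ranged from -0.60 to -0.38 with single arrays left out, and was -0.69 on slides 1 and 3 alone and -0.19 after normexp, called in both, -0.34 after 75th percentile scaling and not called, -0.36 without normalization and not called, -0.0548 with slide as a fixed block and on slide 2 alone, and -0.48 but not called with adjusted p or the fold threshold. Signs turned for Ptdss1 (-0.0813 as the mean of its probes, -0.0026 on slides 1 and 3 alone), Ptdss2 (-0.29 with slide as a fixed block and on slide 2 alone), Pisd (-0.0061 on slides 1 and 3), Pemt (-0.0148 without normalization, -0.0204 on slides 1 and 3), Serinc4 (0.10 after 75th percentile scaling, 0.0858 without normalization, 0.0373 on slides 1 and 3) and Serinc5 (0.15 with slide as a fixed block and on slide 2 alone). With single arrays left out the range crossed 0 for Ptdss1 (-0.0144 to 0.0967), Pemt (-0.0484 to 0.085), Serinc4 (-0.0975 to 0.0465) and Serinc5 (-0.0833 to 0.0574), while Serinc1 and Serinc3 kept their sign under all 28 alternatives. Same-numbered mice have neighbouring animal numbers in their titles, but no source used here says that they were littermates of each other, so the pairing was not established. Their correlations ran from -0.235 to 0.317. Same-numbered mice were always on different slides, so these correlations cannot show whether the mice were paired. The replicate block called 1428 genes, 0 of the 9 and 3 of the other phospholipid genes; Phgdh (adjusted p = 0.368) and Etnk1 (adjusted p = 0.19) were lower in the LKO mouse of 6 of 6 same-numbered pairs, Ano6 (adjusted p = 0.545) was higher in 6 of 6, and all 3 were called. The cause of these changes was not tested. Dim probes such as those of Phgdh, Serinc4 and Ano6 lie near the background and limit what can be read from them.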
